A study of Homo sapiens with 19 samples.

Results

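The receptors and SMAD proteins that carry bone morphogenetic protein (BMP) signals from the cell surface to the nucleus are described here by 10 genes. They were found by gene symbol, by a rule with no threshold on measured values, and each matched 1 row of the 33382 genes listed for every sample. The group holds 5 receptors (BMPR1A, BMPR1B, ACVR1, BMPR2 and ACVR2A) and 5 SMADs (SMAD1, SMAD5, SMAD4, SMAD6 and SMAD7). On GRCh38, by GENCODE release 44, the receptor genes are BMPR1A (chr10:86756596-86932825, plus strand), BMPR1B (chr4:94757955-95158448, plus strand), ACVR1 (chr2:157736251-157876330, minus strand), BMPR2 (chr2:202376327-202567751, plus strand) and ACVR2A (chr2:147844517-147930826, plus strand). The SMAD genes are SMAD1 (chr4:145481194-145559176, plus strand), SMAD5 (chr5:136132845-136188747, plus strand), SMAD4 (chr18:51028528-51085045, plus strand), SMAD6 (chr15:66702236-66782849, plus strand) and SMAD7 (chr18:48919853-48950965, minus strand).

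RNA-seq of H1 cells, an established human embryonic stem cell (hESC) line, was available for 19 samples. Wild-type (WT) H1 cells and 5 homozygous knockout lines made from them by CRISPR/Cas9 had 2 samples each. These lines lacked EZH1 (EZH1-/- H1), EZH2 (EZH2-/- H1), EED (EED-/- H1), SUZ12 (SUZ12-/- H1), or both enzymes, with EZH1 removed from cells already without EZH2 (EZH2-/-/EZH1-/- H1). All 4 genes encode core parts of Polycomb repressive complex 2 (PRC2), which places the repressive histone mark H3K27me3. A further line, H1-EED-/-/EED-OE, carried the EED deletion and a lentiviral EED transgene driven by doxycycline (DOX), and was sampled once with DOX present and once on days 8, 12, 16, 20, 24 and 28 after DOX was removed. The title of the sample kept with DOX names day 28. Per the study's methods, a functional domain was deleted in each gene and clones were picked by drug resistance. The paired samples of a knockout line carry different codes in their titles, which the labels do not explain, so p-values measure the spread between these samples, part of which may be technical. By the study's account H3K27me3 was lost from EED-/-, SUZ12-/- and EZH2-/-/EZH1-/- H1 cells, the 3 PRC2-null lines, and kept in WT, EZH1-/- and EZH2-/- H1 cells, the 3 retaining lines, at reduced levels in the single knockouts of EZH1 or EZH2.

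BMP ligands bring type I and type II receptors together on the membrane. The type II receptor then phosphorylates the type I receptor, which phosphorylates SMAD1 and SMAD5, and these enter the nucleus with the shared partner SMAD4. SMAD6 and SMAD7 are inhibitory SMADs, themselves induced by the pathway, and block the receptors or their substrates. In hESCs, BMP signals favour exit from the undifferentiated state, towards trophoblast-like, mesodermal and other fates.

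Promoter sequences of 4 genes that were higher in the PRC2-null lines and of BMPR1A, which was not, are shown so that their base composition and SMAD motifs can be compared. Each is the stretch of 250 bases before the first transcript start in the RefSeq promoter table, build GRCh38.p14, written 5′ to 3′ in the direction of the gene. Capitals mark GTCT and its reverse complement AGAC, the SMAD box, GTCTAGAC, in which these sit back to back, and GGCGCC, a GC-rich motif that BMP SMADs can bind.
BMPR2, chr2:202376077-202376326, plus strand: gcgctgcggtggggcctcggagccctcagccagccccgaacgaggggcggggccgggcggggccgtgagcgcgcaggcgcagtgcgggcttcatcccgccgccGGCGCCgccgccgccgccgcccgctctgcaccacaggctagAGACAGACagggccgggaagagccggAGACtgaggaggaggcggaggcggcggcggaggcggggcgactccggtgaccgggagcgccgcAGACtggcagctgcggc
ACVR1, chr2:157876331-157876580, minus strand: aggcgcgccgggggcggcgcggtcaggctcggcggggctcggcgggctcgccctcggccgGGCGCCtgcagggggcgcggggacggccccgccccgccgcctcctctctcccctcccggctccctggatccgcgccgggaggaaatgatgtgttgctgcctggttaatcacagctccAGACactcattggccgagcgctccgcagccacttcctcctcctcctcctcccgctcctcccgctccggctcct
SMAD6, chr15:66701986-66702235, plus strand: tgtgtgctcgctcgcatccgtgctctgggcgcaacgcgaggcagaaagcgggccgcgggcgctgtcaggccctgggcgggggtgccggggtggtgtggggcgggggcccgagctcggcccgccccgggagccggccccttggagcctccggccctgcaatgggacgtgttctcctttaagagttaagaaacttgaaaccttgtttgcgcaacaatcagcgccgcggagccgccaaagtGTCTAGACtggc
SMAD7, chr18:48950966-48951215, minus strand: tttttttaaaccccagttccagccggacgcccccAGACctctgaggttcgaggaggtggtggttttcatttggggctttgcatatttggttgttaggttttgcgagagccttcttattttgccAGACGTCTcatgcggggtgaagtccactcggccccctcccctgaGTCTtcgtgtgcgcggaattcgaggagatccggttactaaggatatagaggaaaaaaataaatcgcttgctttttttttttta
BMPR1A, chr10:86755513-86755762, plus strand: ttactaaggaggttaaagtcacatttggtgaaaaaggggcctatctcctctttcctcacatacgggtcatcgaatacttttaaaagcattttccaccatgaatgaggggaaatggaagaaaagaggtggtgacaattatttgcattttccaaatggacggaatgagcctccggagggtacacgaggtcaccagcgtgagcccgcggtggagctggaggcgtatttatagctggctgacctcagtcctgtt

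The windows differed in CpG content. BMPR2 had 36 CpG dinucleotides and a GC content of 79.2%, ACVR1 had 30 and 75.2%, and SMAD6 had 25 and 68.0%. SMAD7 had 13 and 48.0%, and BMPR1A had 9 and 47.2%. The windows of BMPR2, ACVR1, SMAD6 and SMAD7 end at the start of the gene in GENCODE, while that of BMPR1A lies upstream of it, before a start that only the RefSeq table gives. Over all 35116 windows of the table the median was 11 CpG and 58.0% GC, and the middle of the distribution ran from 3 to 23 CpG. All 10 genes had at least 1 window, 20 in all. The first windows of the other 5 genes held 24 CpG in BMPR1B, 14 in ACVR2A, 4 in SMAD1, 25 in SMAD4 and 26 in SMAD5, and 1 of the further SMAD1 windows held 37. The palindrome GTCTAGAC was present in the first window of SMAD6 alone among the 10 genes and in 0.18% of all windows, searched on both strands. GGCGCC was present in the first window of 3 of the 10 genes (BMPR2, ACVR1 and SMAD4) and in 16.4% of all windows, and GTCT in 8 of 10 and in 77.5%. A match is a description of the letters and was not tied to binding by any measurement here.

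Levels are TPM, a share of transcripts corrected for gene length, with the same total in each sample. A TPM above 0 was listed for 19117 to 23012 genes per sample, and the read depth behind these values is unknown. Genes below a TPM of 1 in more than 10 of the 12 line samples were left out. All 10 genes passed, BMPR1B through its levels in the PRC2-null lines alone. Lines were compared with limma on log2(TPM + 1) over 19100 genes, and a gene was called when it changed by 3-fold or more with a p, adjusted by Benjamini and Hochberg's method, of 0.01 or less. All comparisons with WT H1 share its 2 samples. The targeted genes gave no check of the labels, because only a domain was deleted and TPM counts the whole gene. EED, for example, was at 14.25 and 22.36 TPM in EED-/- H1 cells and at 17.30 and 21.96 in WT H1 cells. Of the 4 targeted genes, 1 was called lower than WT H1 in SUZ12-/- H1 cells, beside 995 of the 19100 genes. EZH2 ranged from 13.96 to 33.06 TPM in the PRC2-null samples and from 22.02 to 58.89 in the retaining samples.

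The PRC2-null samples also differed from the retaining samples in markers of cell identity. The summed TPM of 6 markers of undifferentiated hESCs was 129 to 439 in the 6 PRC2-null samples and 5262 to 6524 in the 6 retaining samples, and 6 of 6 markers fell. The summed TPM of 5 mesenchymal and smooth muscle markers was 7403 to 14694 against 218 to 633, and 4 of 5 rose. The 6 endoderm markers summed to 879 to 16901 against 4.72 to 14.8, and 6 of 6 rose. The 5 trophoblast and amnion markers summed to 217 to 433 against 11.9 to 14.8, and 5 of 5 rose. The 5 endothelial markers summed to 52.6 to 506 against 46.1 to 145, and 3 of 5 rose. Of the defining markers, TTR was at 0 in all 6 retaining samples. In such bulk samples fewer cells of a type and less RNA per cell cannot be told apart, and the part of these cell types in the values below was not tested.

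The 2 EZH2-/-/EZH1-/- H1 samples stood apart from each other and are therefore given singly. Between them, 20.7% of the genes tested differed by at least 2-fold on the log2(TPM + 1) scale, and so did 5 of the 10 genes: BMPR1A, SMAD1, SMAD4, SMAD5 and SMAD6. All 5 were lower in replicate 2. Their differences, replicate 2 minus replicate 1, were -1.69 for BMPR1A, -2.13 for SMAD1, -1.94 for SMAD4, -1.36 for SMAD5 and -1.70 for SMAD6. BMPR1B differed by 0.03 and ACVR2A by 0.40, so the gap did not run through all 10. The median over all genes was -0.28. The same samples summed to 439 and 298 TPM for the hESC markers, to 1836 and 2085 for the endoderm, 177 and 52.6 for the endothelial, 8813 and 7403 for the mesenchymal and 247 and 217 for the trophoblast markers, replicate 1 first. Between the 2 WT H1 samples 1.41% of genes passed 2-fold, and 1 of the 10 genes did, SMAD7, with a difference of -1.62.

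**Figure D1:**
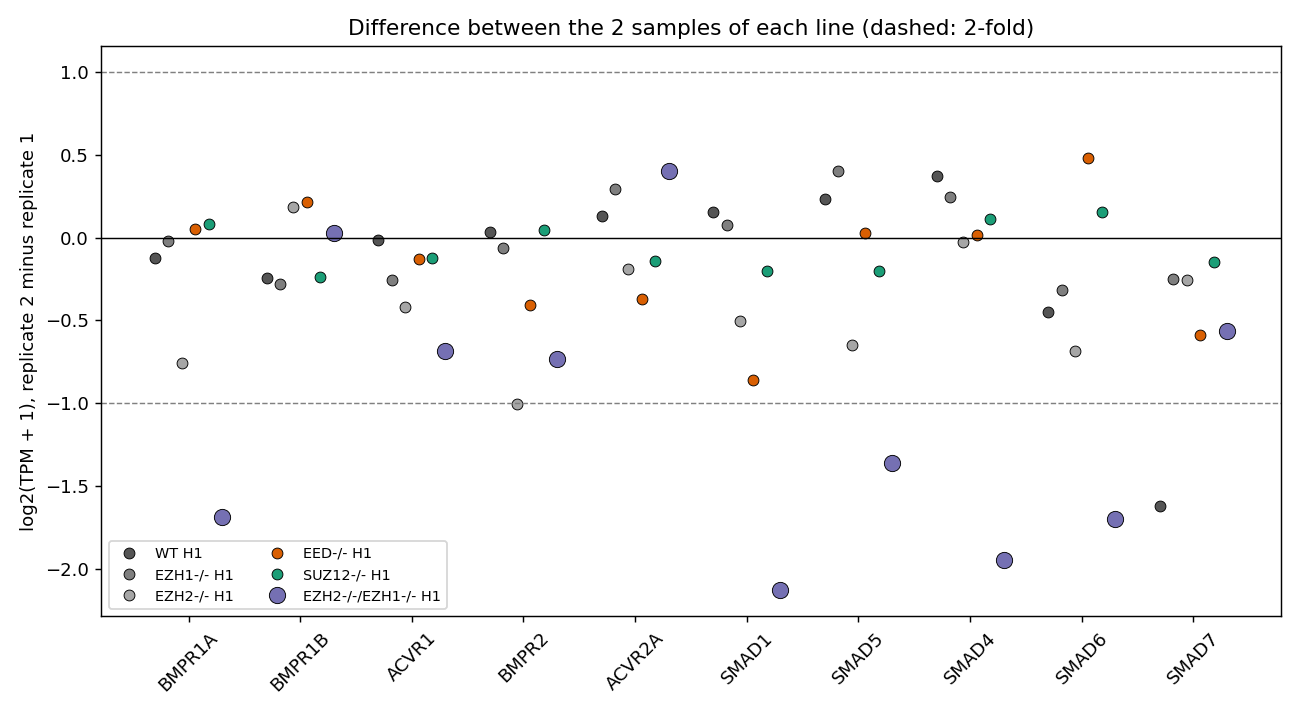
Difference in log2(TPM + 1) between replicate 2 and replicate 1 (y axis) for each of the 10 genes (x axis) in the 6 lines, 1 point per line, with dashed lines at 2-fold. The large points of EZH2-/-/EZH1-/- H1 lie below the lower dashed line for BMPR1A, SMAD1, SMAD5, SMAD4 and SMAD6, and the WT H1 point does so for SMAD7. The EZH2-/- H1 point of BMPR2 sits on that line.

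The comparison of the PRC2-null with the retaining lines asks whether the machinery that receives BMP signals changed with the loss of the mark. Of the 10 genes, 5 were called higher and 0 lower. Of the 19100 genes tested, 13.5% were called higher and 972 genes were called lower. BMPR1B, under a TPM of 1 in every retaining sample, could pass the filter only where it was high, and of the other 9 genes 4 were called. The 5 were BMPR1B, BMPR2, ACVR1, SMAD6 and SMAD7, so that 3 receptors and both inhibitory SMADs were higher, and SMAD1, SMAD5 and SMAD4, which carry the signal forward, did not pass the thresholds. The log2 differences were 2.69 ± 0.21 (SE, limma adjusted p = 7.76e-07) for BMPR2 and 1.63 ± 0.15 (limma adjusted p = 4.04e-06) for ACVR1, and 1.68 ± 0.15, given as a description, for BMPR1B. They were 2.35 ± 0.28 (adjusted p = 2.21e-05) for SMAD6, 1.63 ± 0.25 (adjusted p = 1.83e-04) for SMAD7 and, under the fold cutoff, 1.30 ± 0.15 (limma adjusted p = 1.95e-05) for ACVR2A. The median log2 difference was 1.46 over the 10 genes and 1.30 without BMPR1B, against 0.29 over all genes tested. The same 5 genes were the ones whose 6 PRC2-null samples all lay above their 6 retaining samples, which held for 24.2% of all genes. At an adjusted p of at most 0.05 with no fold cutoff 7 of 10 genes (6 of the other 9) were higher, ACVR2A and SMAD5 being added, against 43.8% of all genes. Scaling by median ratios moved the median over all genes by -0.13, and the fold changes of BMPR1B, ACVR1 and SMAD7 then lay just under 3-fold at 1.58, 1.47 and 1.47 on the log2 scale, which left 2 called. Without EZH2-/-/EZH1-/- H1 replicate 1, and without EZH2-/- H1 replicate 2, 3 genes were called, and ACVR1 and SMAD7 lay under the fold cutoff. SMAD7 did so also without WT H1 replicate 2 or EED-/- H1 replicate 1. The share of all genes called in these fits is not given here.

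Line by line, EED-/- H1 cells had 5 of the 10 genes higher than WT H1 at the thresholds, against 16.2% of all genes. They were BMPR1B, BMPR2, ACVR1, SMAD6 and SMAD7. SUZ12-/- H1 cells had 3 higher, BMPR2, ACVR2A and SMAD6, against 14.5%. EZH2-/-/EZH1-/- H1 cells had 4 higher, BMPR1B, BMPR2, SMAD6 and SMAD7, against 11.6%. None of the 10 was called lower in these 3 lines with all samples, beside 1164, 995 and 1081 of the 19100 genes. At an adjusted p of at most 0.05 the numbers higher were 6, 6 and 5, beside 34.1%, 29.5% and 26.9% of all genes in the same order. BMPR2 and SMAD6 were called in each of the 3 lines. Without BMPR1B the numbers were 4, 3 and 3 of 9. Median-ratio scaling moved the median over all genes by -0.21 in EED-/- H1 cells and left these numbers at 5, 3 and 4. The number in EED-/- H1 cells fell without WT H1 replicate 2 or EED-/- H1 replicate 1. In the double knockout it fell without WT H1 replicate 2. The share of all genes called in such fits, with 1 sample in a line, is not given here.

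In EZH1-/- H1 cells 0 of the 10 genes were called by limma, beside 0.0995% of all genes in either direction, and 0 at an adjusted p of at most 0.05, beside 1.06%. At an unadjusted p under 0.05 the number was also 0. In EZH2-/- H1 cells 0 were called, beside 0% of all genes, and 0 at an adjusted p of at most 0.05, beside 0.0628%. At an unadjusted p under 0.05 the number was 1, ACVR2A, at a log2 fold change of -0.60 ± 0.26 (SE, n = 2 per line by limma, adjusted p = 0.843). The intervals were wide, so that for SMAD7, for example, the 95% interval in EZH2-/- H1 cells ran from -0.33 to 1.61 on the log2 scale.

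**Figure D2:**
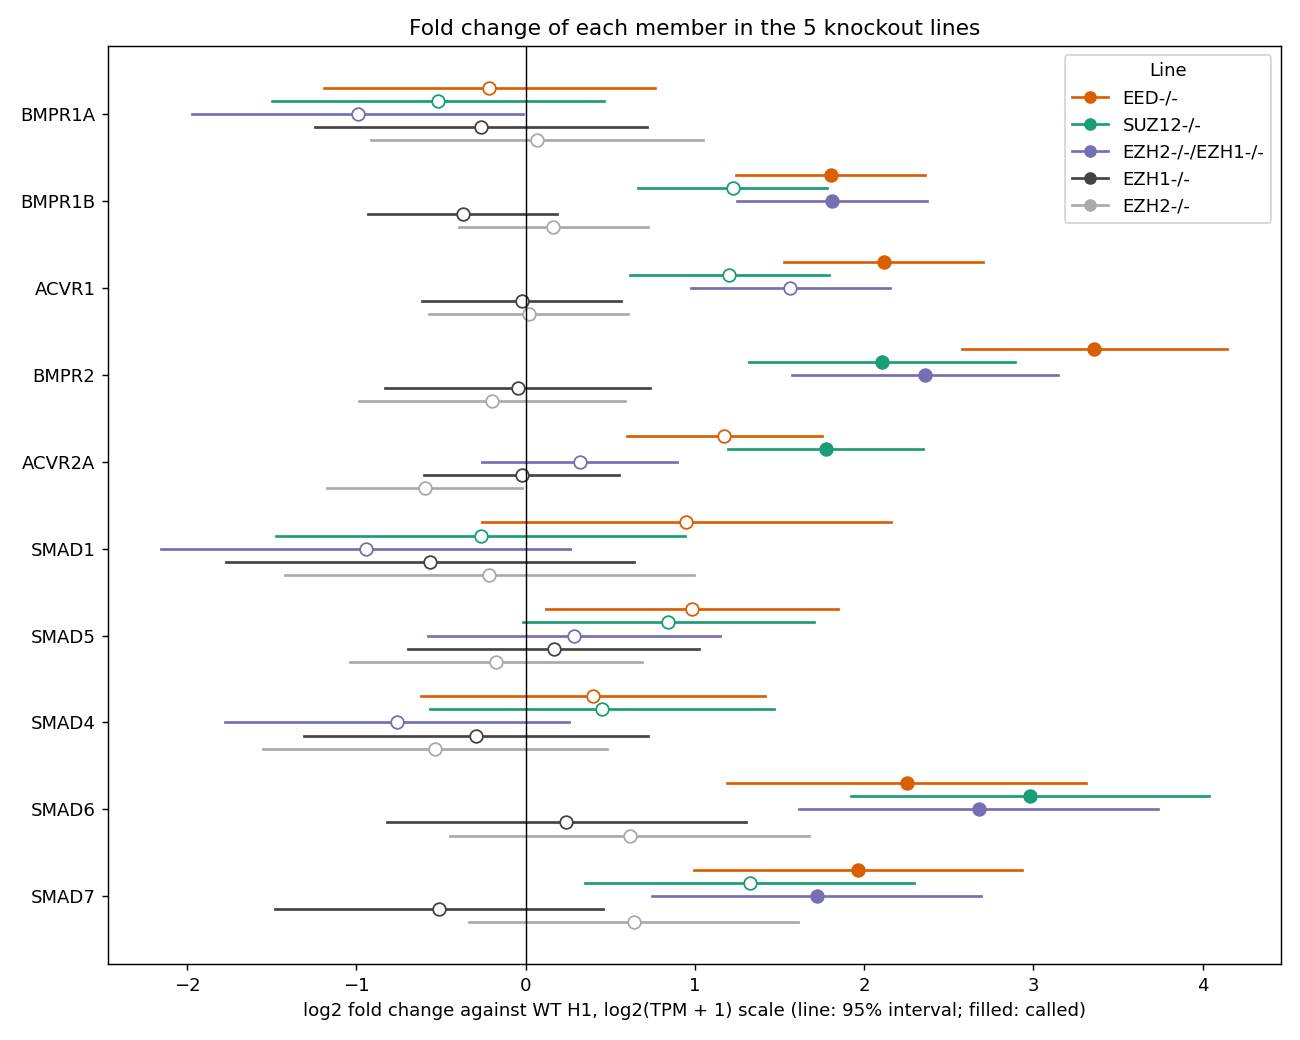
Log2 fold change against WT H1 on the log2(TPM + 1) scale (x axis) with its 95% interval for the 10 genes (y axis) in the 5 knockout lines, filled where called. Filled points appear for the 3 PRC2-null lines, at BMPR2 and SMAD6 in all 3, and the EZH1-/- and EZH2-/- H1 points are all open.

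Among the type I receptors, BMPR1A, the receptor through which BMP2 and BMP4 signal in many embryonic tissues, was not called in any line. It was at 26.51 and 24.26 TPM in WT H1, 21.12 and 20.80 in EZH1-/- H1 and 34.89 and 20.21 in EZH2-/- H1 cells. It was at 21.31 and 22.16 in EED-/- H1, 16.89 and 17.92 in SUZ12-/- H1 cells, and 22.79 and 6.38 in EZH2-/-/EZH1-/- H1 cells, so that the groups overlapped. The PRC2-null lines differed from the retaining lines by -0.51 ± 0.26 (log2, SE) at a limma adjusted p of 0.0990. In EZH2-/-/EZH1-/- H1 cells the log2 fold change was -0.99 ± 0.44 (adjusted p = 0.0925), and it was -1.84 (limma adjusted p = 6.88e-04) and called without replicate 1, but -0.15 (adjusted p = 0.707) without replicate 2.

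BMPR1B, a type I receptor best known from limb cartilage and the ovary, was low in the retaining lines, at 0.75 and 0.48 TPM in WT H1, 0.37 and 0.13 in EZH1-/- H1 and 0.69 and 0.92 in EZH2-/- H1 cells. It was at 4.21 and 5.05 in EED-/- H1, 3.08 and 2.46 in SUZ12-/- H1 cells, and 4.59 and 4.70 in EZH2-/-/EZH1-/- H1 cells. Every PRC2-null sample was above every retaining sample, yet its level stayed the lowest of the 5 receptors in all 19 samples. As a description, the log2 fold change against WT H1 was 1.80 ± 0.25 in EED-/- H1 and 1.81 ± 0.25 in EZH2-/-/EZH1-/- H1 cells. In SUZ12-/- H1 cells it was 1.22 ± 0.25, under the fold cutoff, and 2.02 and past it with a pseudocount of 0.1.

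ACVR1, the type I receptor also known as ALK2, was at 10.39 and 10.26 TPM in WT H1, 11.17 and 9.21 in EZH1-/- H1 and 12.25 and 8.93 in EZH2-/- H1 cells. It was at 50.24 and 45.94 in EED-/- H1, 26.18 and 23.98 in SUZ12-/- H1 cells, and 41.48 and 25.38 in EZH2-/-/EZH1-/- H1 cells. The groups did not overlap, and EED-/- H1 cells were the highest. The log2 fold change in EED-/- H1 cells was 2.11 ± 0.27 (limma, adjusted p = 8.38e-05). In SUZ12-/- H1 cells and the double knockout it was 1.2 ± 0.27 (adjusted p = 0.00361) and 1.56 ± 0.27 (adjusted p = 8.32e-04), both under the fold cutoff. Without EZH2-/-/EZH1-/- H1 replicate 2 the double knockout was called, at 1.91. SUZ12-/- H1 cells were lower than EED-/- H1 cells by a log2 difference of -0.91 ± 0.27 (adjusted p = 0.0353). That call was lost with each of the 4 samples left out in turn, at adjusted p from 0.0816 to 0.192.

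Among the type II receptors, BMPR2, the main BMP type II receptor, had the largest log2 fold change of the 10 genes in EED-/- H1 cells, and SMAD6 had it in the other PRC2-null lines. It was at 3.30 and 3.40 TPM in WT H1, 3.30 and 3.12 in EZH1-/- H1 and 4.37 and 1.68 in EZH2-/- H1 cells. It was at 50.49 and 37.77 in EED-/- H1, 17.41 and 18.04 in SUZ12-/- H1 cells, and 27.74 and 16.31 in EZH2-/-/EZH1-/- H1 cells. No PRC2-null sample reached down to a retaining sample. The log2 fold change was 3.36 ± 0.36 (adjusted p = 2.46e-05) in EED-/- H1, 2.11 ± 0.36 (adjusted p = 6.56e-04) in SUZ12-/- H1 cells, and 2.36 ± 0.36 (adjusted p = 3.77e-04) in the double knockout by limma. All 3 calls held under every alternative run for them. SUZ12-/- H1 cells were lower than EED-/- H1 cells by -1.25 ± 0.36 (adjusted p = 0.0310). That difference was not called with a pseudocount of 0.1 (adjusted p = 0.0624) or with each of the 4 samples left out in turn (adjusted p from 0.0533 to 0.188). In GENCODE an unnamed gene on the same strand shares exon sequence with BMPR2. Reads may be split between them if the reference used for quantification held that gene, which was not checked.

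ACVR2A, a type II receptor shared by activins and several BMPs, ordered the lines differently. It was at 6.14 and 6.81 TPM in WT H1, 5.64 and 7.13 in EZH1-/- H1 and 4.28 and 3.62 in EZH2-/- H1 cells. It was at 18.17 and 13.83 in EED-/- H1, 25.80 and 23.30 in SUZ12-/- H1 cells, and 7.11 and 9.71 in EZH2-/-/EZH1-/- H1 cells. The double knockout touched the retaining range, and SUZ12-/- H1 cells were the highest. The log2 fold change in SUZ12-/- H1 cells was 1.77 ± 0.26 (limma, adjusted p = 2.64e-04). In EED-/- H1 cells it was 1.17 ± 0.26 (adjusted p = 0.00333), under the fold cutoff, and in EZH2-/-/EZH1-/- H1 cells 0.32 ± 0.26 (adjusted p = 0.344). EZH2-/-/EZH1-/- H1 cells were lower than SUZ12-/- H1 cells by -1.45 ± 0.26 (adjusted p = 0.00399). Without SUZ12-/- H1 replicate 1 this difference had an adjusted p of 0.0536. ORC4 and an unnamed gene on the opposite strand overlap ACVR2A exons, and the use of strand in counting is not stated.

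Between the PRC2-null lines, 2 of the 10 genes differed between SUZ12-/- and EED-/- H1 cells at an adjusted p of at most 0.05, against 19.6% of all genes. Between EZH2-/-/EZH1-/- and SUZ12-/- H1 cells 1 of 10 differed, against 14.3%. Between EZH2-/-/EZH1-/- and EED-/- H1 cells 0 of 10 differed by limma, against 0.796%, with 4 at an unadjusted p under 0.05. These numbers depended on single samples and changed in each comparison when a sample was left out. Such a fit leaves 1 sample in a line, and the share of all genes in it is not given here.

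**Figure D3:**
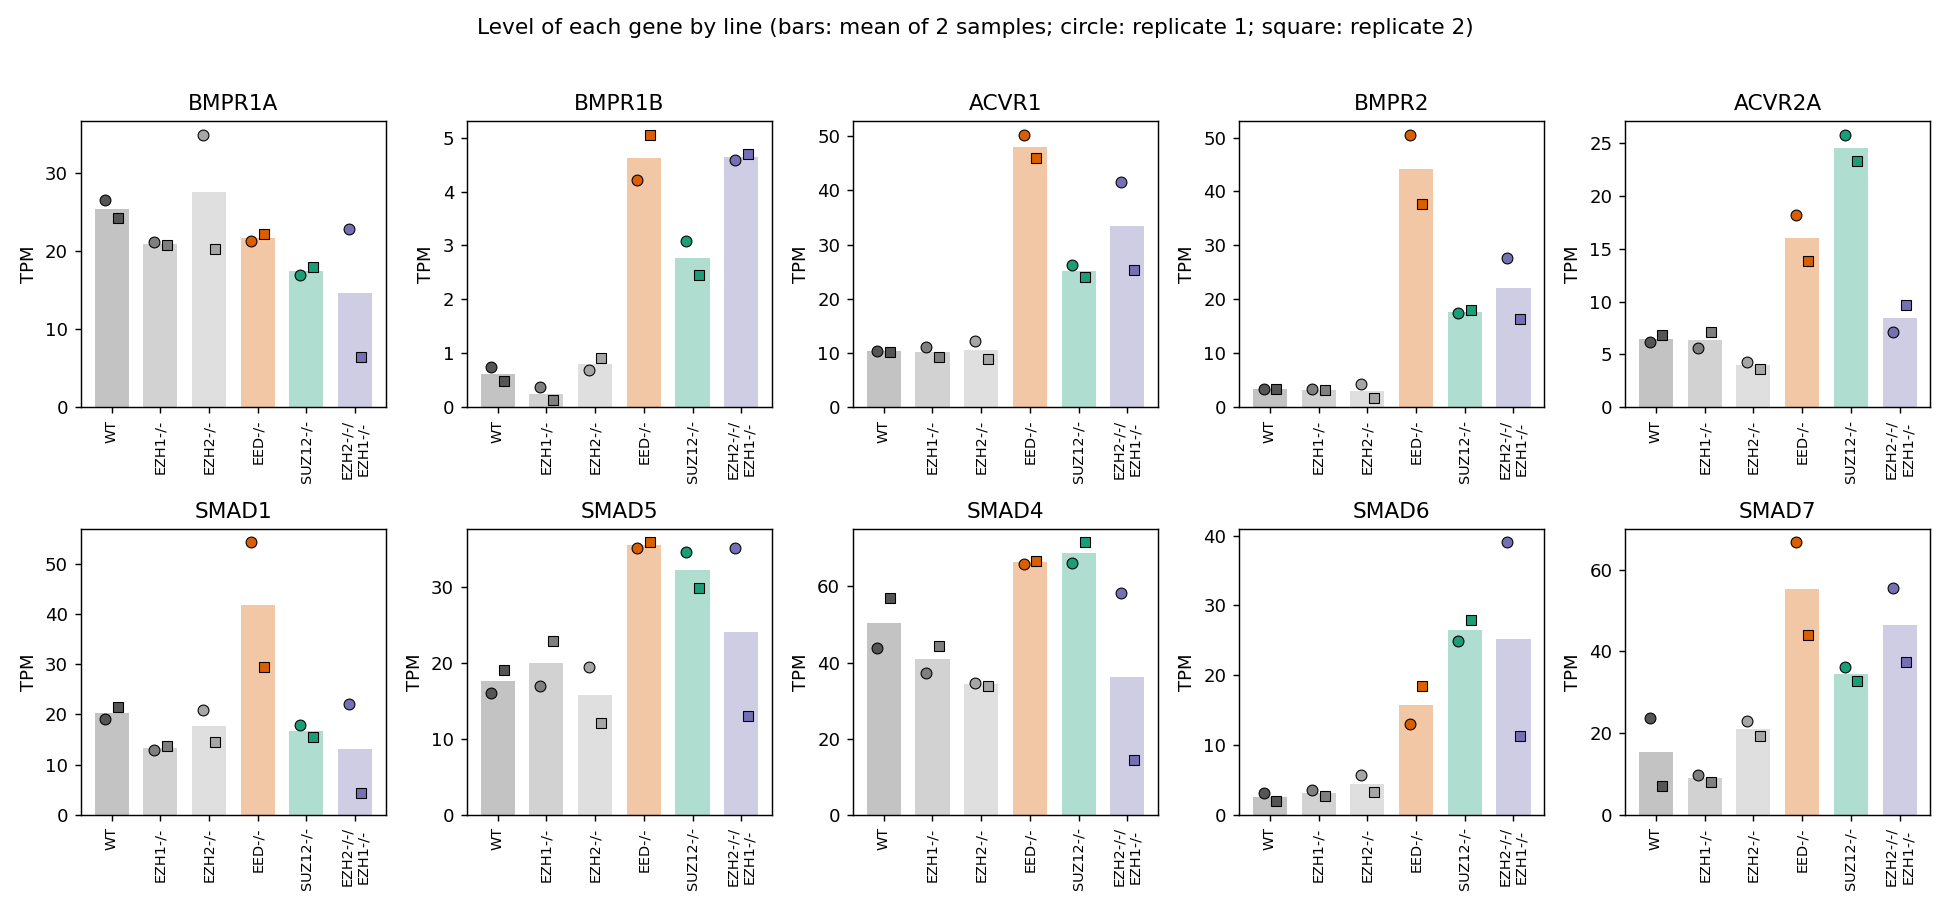
TPM (y axis) of each of the 10 genes in the 6 lines (x axis), with a bar for the mean of 2 samples, a circle for replicate 1 and a square for replicate 2. The colored points of the PRC2-null lines lie above all grey points for BMPR1B, ACVR1, BMPR2, SMAD6 and SMAD7, and the purple circle and square of the double knockout lie far apart for BMPR1A, SMAD1, SMAD5, SMAD4 and SMAD6.

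Of the receptor-regulated SMADs, SMAD1 and SMAD5 were called in no line with all samples. SMAD1 was at 19.15 and 21.44 TPM in WT H1, 12.99 and 13.76 in EZH1-/- H1 and 20.81 and 14.41 in EZH2-/- H1 cells. It was at 54.34 and 29.50 in EED-/- H1, 17.96 and 15.49 in SUZ12-/- H1 cells, and 22.10 and 4.28 in EZH2-/-/EZH1-/- H1 cells. EED-/- H1 samples were the highest and the second double-knockout sample the lowest of the 12. The PRC2-null lines differed from the retaining lines by 0.17 ± 0.32 (log2, limma adjusted p = 0.642). Against WT H1 the log2 fold change was 0.95 ± 0.55 in EED-/- H1 (adjusted p = 0.169) and -0.95 ± 0.55 in EZH2-/-/EZH1-/- H1 cells (adjusted p = 0.185). Without EZH2-/-/EZH1-/- H1 replicate 1 the latter was -2.01 (adjusted p = 0.00123) and called, and without replicate 2 it was 0.12 (limma adjusted p = 0.807). SMAD1-AS1 overlaps SMAD1 exons on the opposite strand.

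SMAD5, the close homolog of SMAD1 with the same role, was at 16.02 and 19.02 TPM in WT H1, 16.99 and 22.81 in EZH1-/- H1 and 19.46 and 12.08 in EZH2-/- H1 cells. It was at 35.11 and 35.81 in EED-/- H1, 34.56 and 29.88 in SUZ12-/- H1 cells, and 35.07 and 13.04 in EZH2-/-/EZH1-/- H1 cells. Of the 6 PRC2-null samples, 5 lay above the retaining range, and the second double-knockout sample lay within it. The PRC2-null lines were higher by 0.71 ± 0.23 (log2, limma adjusted p = 0.0161), which did not meet the fold cutoff. In the double knockout the log2 fold change against WT H1 was -0.39 without replicate 1 and 0.97 without replicate 2. SMAD5 shares exon sequence with 2 unnamed genes on its strand and with SMAD5-AS1 on the other.

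SMAD4, the partner of every receptor-regulated SMAD, was the most abundant SMAD in WT H1 cells, at 43.94 and 57.10 TPM. It was at 37.26 and 44.42 in EZH1-/- H1, 34.65 and 33.96 in EZH2-/- H1, 65.95 and 66.80 in EED-/- H1, and 66.17 and 71.57 in SUZ12-/- H1 cells. In EZH2-/-/EZH1-/- H1 cells it was at 58.24 and 14.39, the latter the lowest of the 12 samples. The PRC2-null lines differed from the retaining lines by 0.31 ± 0.27 (log2, limma adjusted p = 0.324), and no line was called. Without EZH2-/-/EZH1-/- H1 replicate 1 that line was called lower, at -1.73 (adjusted p = 1.27e-04), and without replicate 2 the value was 0.21 (limma adjusted p = 0.422). An unnamed gene on the same strand shares exon sequence with SMAD4.

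Among the inhibitory SMADs, SMAD6, which acts chiefly on BMP receptors, was at 3.05 and 1.97 TPM in WT H1, 3.57 and 2.67 in EZH1-/- H1 and 5.73 and 3.19 in EZH2-/- H1 cells. It was at 12.99 and 18.49 in EED-/- H1, 24.93 and 27.90 in SUZ12-/- H1 cells, and 39.01 and 11.31 in EZH2-/-/EZH1-/- H1 cells. Every PRC2-null sample was above every retaining sample, although the double-knockout samples spanned the whole PRC2-null range. The log2 fold change was 2.25 ± 0.48 (adjusted p = 0.00264) in EED-/- H1, 2.98 ± 0.48 (adjusted p = 4.84e-04) in SUZ12-/- H1 cells, and 2.68 ± 0.48 (adjusted p = 0.00116) in the double knockout by limma. The SUZ12-/- H1 call held under every alternative run for it. The EED-/- H1 call was lost with each of its 4 samples left out in turn (adjusted p from 0.0114 to 0.0274), and the EZH2-/-/EZH1-/- H1 call without WT H1 replicate 2 (adjusted p = 0.0151).

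SMAD7, which restrains both BMP and TGF-β receptors, differed between the WT H1 samples, at 23.79 and 7.08 TPM. It was at 9.82 and 8.10 in EZH1-/- H1 and 23.06 and 19.15 in EZH2-/- H1 cells. It was at 66.69 and 44.02 in EED-/- H1, 36.24 and 32.66 in SUZ12-/- H1 cells, and 55.59 and 37.35 in EZH2-/-/EZH1-/- H1 cells. The groups did not overlap, but the fold changes depended on WT H1 replicate 2. The log2 fold change was 1.96 ± 0.44 (adjusted p = 0.00351) in EED-/- H1, 1.32 ± 0.44 (adjusted p = 0.0291) in SUZ12-/- H1 cells, and 1.72 ± 0.44 (adjusted p = 0.00891) in the double knockout by limma. Without WT H1 replicate 2 the values were 1.15 in EED-/- H1 (adjusted p = 0.0270), 0.51 in SUZ12-/- H1 cells and 0.91 in the double knockout (adjusted p = 0.0764), and none was called. Without WT H1 replicate 1 SUZ12-/- H1 cells were called at 2.13 (adjusted p = 0.00159). The EED-/- H1 call was also lost without EED-/- H1 replicate 1 (adjusted p = 0.0413), and the EZH2-/-/EZH1-/- H1 call without either sample of that line (adjusted p = 0.0473 and 0.0125).

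Genes around these 10 in the pathway were counted in the same comparison of PRC2-null with retaining lines. There 13.5% of all 19100 genes rose and 972 fell. Of 14 other TGF-β family receptors and co-receptors, 13 were tested, 7 rose and 1 fell. BAMBI, a decoy receptor without a kinase domain, rose most, by 4.16 ± 0.16 (log2, limma adjusted p = 5.96e-09), and RGMA, a BMP co-receptor, fell by 1.61 on the log2 scale (adjusted p = 1.84e-06). Of 3 other SMADs, 2 rose. They were SMAD9, the third BMP-regulated SMAD, at 2.28 ± 0.28 (adjusted p = 2.95e-05), and SMAD3, which serves TGF-β and activin receptors, at 2.00 ± 0.14 (adjusted p = 4.20e-07). Of 30 SMAD modifiers and partners, 5 rose and 0 fell, and ZEB2, a SMAD-binding repressor, rose most, by 4.86 ± 0.16 (adjusted p = 3.25e-09).

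Of 14 BMP and GDF ligands, 11 were tested and 7 rose, and the largest rise was that of GDF6, at 4.82 ± 0.18 (limma, adjusted p = 4.69e-09). Of 10 known targets, 8 rose, and the largest rise was that of TBX3, a T-box factor, at 5.73 ± 0.19 (adjusted p = 3.00e-09). ID1 and ID3 did not, with medians of 247 TPM in PRC2-null against 220 in retaining samples for ID1 and 150 against 149 for ID3. Of 8 secreted antagonists, 7 rose and 1 fell. GREM1 rose most, by 5.84 ± 0.39 (adjusted p = 2.89e-07), and CHRDL1 fell by 2.00 on the log2 scale (adjusted p = 4.32e-05). The median log2 fold change was 1.68 for the other receptors, 2.00 for the other SMADs, 0.32 for the modifiers and partners, 3.27 for the ligands, 3.92 for the targets and 3.22 for the antagonists, beside 1.46 for the 10 genes and 0.29 for all genes.

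After removal of DOX, the 10 genes could be followed as EED was withdrawn from the rescued line. EED was at 108.5 TPM with DOX and between 12.64 and 31.56 afterwards, whole-gene values that include the deleted endogenous gene. With 1 sample per day no day could be tested singly, and the slope over the 6 days without DOX was fitted with limma over 17245 genes. Of the 10 genes, 7 had a rising slope at an adjusted p of at most 0.05 and 0 a falling one. Of all 17245 genes, 12.3% rose and 1265 fell. BMPR1B again passed the filter through the days on which it was high, and of the other 9 genes 6 were called. The 7 were BMPR1B, BMPR2, ACVR1, SMAD1, SMAD4, SMAD5 and SMAD7, among them the 3 SMADs not called between the lines. At an adjusted p of at most 0.05, SMAD5 was also higher between the lines (limma adjusted p = 0.0161). The slope calls had this looser p threshold and no fold cutoff, so they are not like the calls between the lines. The calls depended on the days kept, since 0 genes were called without day 12, 1 without day 24, 2 without day 8 and 2 without day 28. Those fits have fewer days, and the share of all genes called in them is not given here. The slopes of the 7 genes stayed rising with each day left out, from 0.091 to 0.10 for BMPR2 and from 0.097 to 0.18 for SMAD7. BMPR1B (adjusted p = 0.0622), SMAD1 (0.0611) and SMAD4 (0.0597) were not called by limma with no filter on low values. The sample of day 20 was the first with a summed TPM of the hESC markers, 2498, below that with DOX, 4777, and the sums at days 24 and 28 were 401 and 439. The mesenchymal sum was 387 with DOX, 200, 198 and 149 on days 8, 12 and 16, 523 at day 20, 7312 at day 24 and 7330 at day 28. Other sums moved earlier. The endoderm sum was 3.9 with DOX, 6.74, 25.6 and 85.4 on days 8, 12 and 16, and 376 at day 20. The trophoblast sum was 14.3 with DOX, 51.1 on day 8, 14.3 on day 16 and 595 at day 20, of which HAND1 made 470. The endothelial sum was 43.8 with DOX, 162 on day 12 and 551 at day 24. The part of these markers in the slopes was not tested.

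BMPR2 was at 2.12 TPM with DOX and at 4.76, 5.47, 8.22, 12.77, 13.18 and 20.10 from day 8 to day 28. It rose at each step, with a slope of 0.10 ± 0.02 per day on the log2(TPM + 1) scale (limma adjusted p = 0.0149, n = 6 days). ACVR1 was at 10.88 with DOX and at 11.86, 14.86, 11.64, 38.51, 42.04 and 51.74, which was a step between days 16 and 20. Its slope was 0.12 ± 0.02 (adjusted p = 0.0191). BMPR1B was at 0.41 with DOX and at 0.52, 1.28, 0.97, 1.73, 2.19 and 5.16, with a slope of 0.09 ± 0.02. By day 28 BMPR1B and ACVR1 were above the range of the constitutive EED-/- H1 samples, and BMPR2 was below it.

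SMAD1 was at 8.48 TPM with DOX and at 12.27, 17.82, 32.90, 37.61, 27.75 and 43.64 from day 8 to day 28. SMAD5 was at 8.59 and then at 15.29, 19.11, 21.87, 23.00, 30.98 and 40.26. SMAD4 was at 23.16 and then at 29.12, 35.59, 36.02, 41.04, 49.00 and 56.42. SMAD5 and SMAD4 increased at every step and SMAD1 at all but 1, with slopes of 0.08 ± 0.02 for SMAD1 (adjusted p = 0.0400), 0.06 ± 0.01 for SMAD5 (adjusted p = 0.0245) and 0.04 ± 0.01 for SMAD4 (limma adjusted p = 0.0445). The sample with DOX lay below both WT H1 samples for these 3 genes and for BMPR1A, BMPR1B, BMPR2 and ACVR2A. Day 28 was thus 2.24 log2 units above DOX but 1.07 above the WT H1 mean for SMAD1. The same values were 2.11 and 1.16 for SMAD5, and 1.25 and 0.17 for SMAD4. They were 2.76 and 2.28 for BMPR2, and 2.13 and 1.94 for BMPR1B.

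SMAD7 was at 16.63 TPM with DOX, at 4.94 on day 8, and then at 12.93, 18.79, 42.39, 39.03 and 36.74. Its day 8 value was the lowest of all 19 samples, and its slope was 0.14 ± 0.03 (limma adjusted p = 0.0180). With the DOX sample entered as day 0 the slope was 0.08 (adjusted p = 0.0757). SMAD6 was at 3.77 with DOX and at 4.12, 6.73, 8.20, 29.69, 44.33 and 14.39. The peak on day 24 was the highest SMAD6 value of all 19 samples and day 28 was lower, and its slope was 0.12 ± 0.04 (adjusted p = 0.0715). Without day 28 the slope was 0.21 (adjusted p = 0.0374).

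BMPR1A and ACVR2A did not follow the days. BMPR1A was at 9.50 TPM with DOX and at 19.85, 32.23, 34.96, 19.89, 11.96 and 16.31, a course that peaked on day 16, with a slope of -0.04 ± 0.03 (limma adjusted p = 0.247). ACVR2A was at 5.76 with DOX and at 11.81, 6.48, 7.67, 8.02, 5.75 and 10.46, with a slope of -0.01 ± 0.02 (adjusted p = 0.826).

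Against the sample with DOX, 1 of the 10 genes differed by at least 2-fold on the log2(TPM + 1) scale on day 8, when 14.4% of all genes did. That was SMAD7, which was lower. BMPR1A, ACVR2A and BMPR2 were higher on day 8 and just under this cutoff, at 0.99, 0.92 and 0.88. In TPM itself they were past 2-fold, at 9.50 with DOX and 19.85 on day 8, 5.76 and 11.81, and 2.12 and 4.76. On day 12 the number was 3 (13.7% of all genes) and on day 16 it was 4 (17.1%). On day 20 it was 6 (28.3%), on day 24 it was 8 (37.1%), and on day 28 it was 8 (45.2%), all of them higher. Against the mean of WT H1 the number was 1 on day 8 (15% of all genes), 1 on day 12 (11.9%), 2 on day 16 (10.7%), 4 on day 20 (22.3%), 5 on day 24 (33.5%) and 7 on day 28 (39.1%). SMAD7 on day 8 (-1.25) and BMPR1A on day 24 (-1.02) were lower than WT H1, and the rest were higher. The median difference of the 10 genes from DOX was 0.40 on day 8 and 1.90 on day 28 on the log2 scale, beside 0.18 and 0.41 over all genes.

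**Figure D4:**
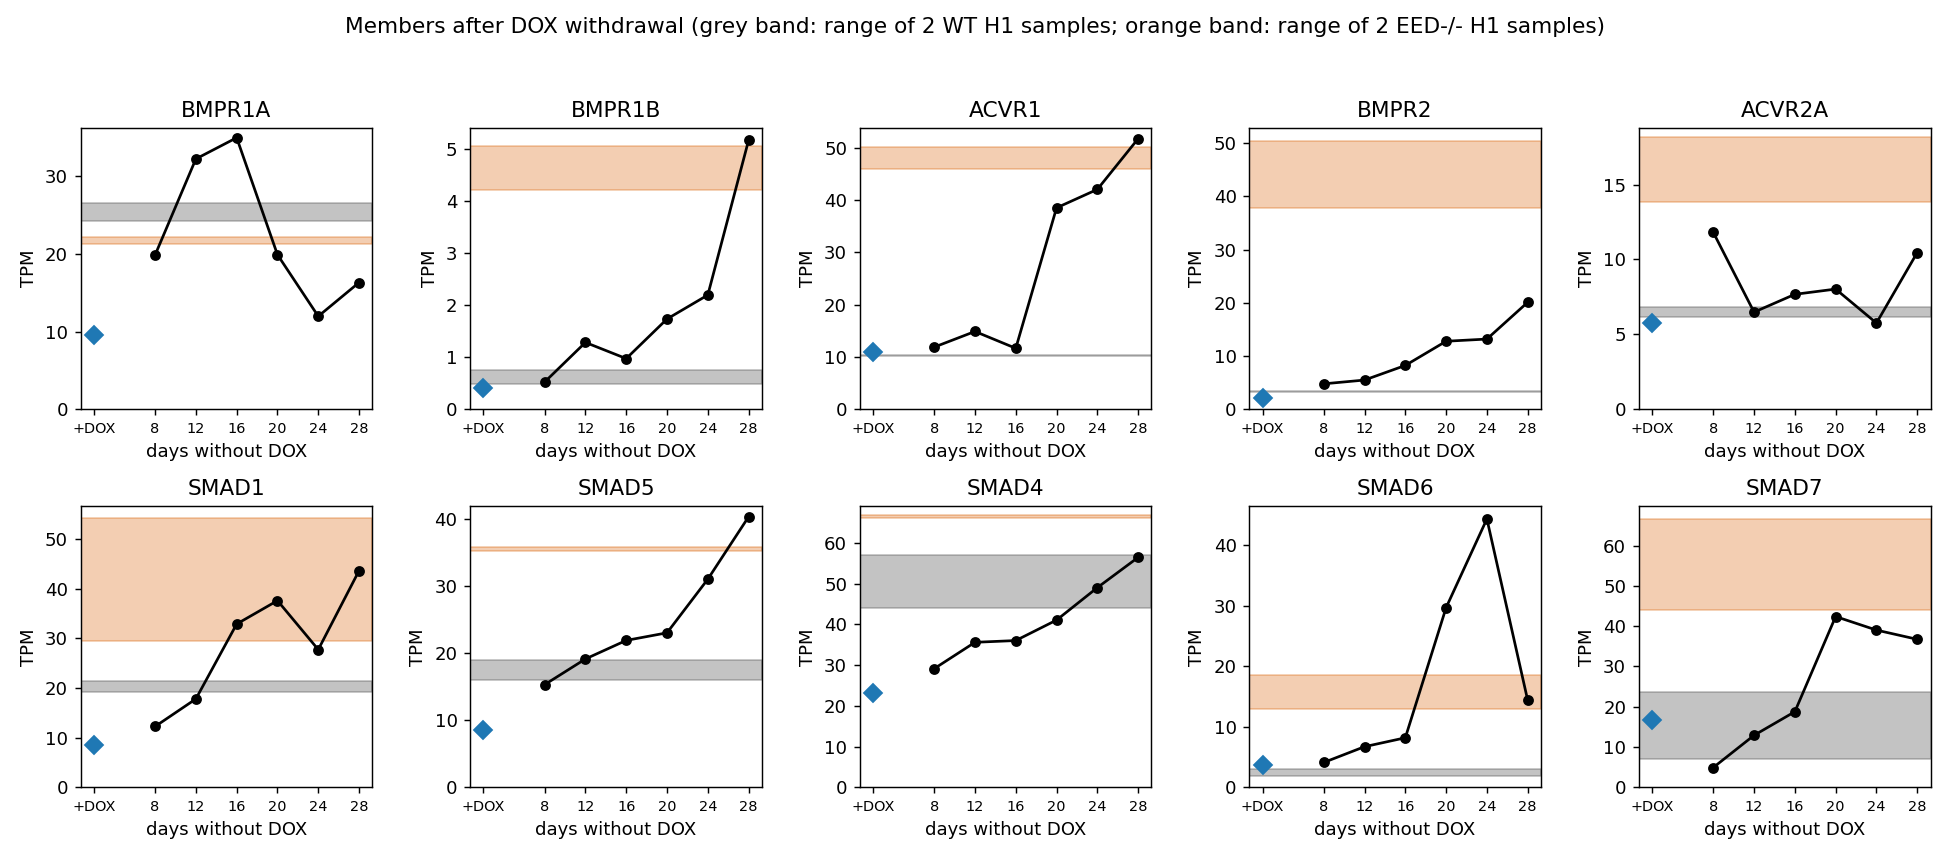
TPM (y axis) of the 10 genes in the sample with DOX (blue diamond) and on days 8 to 28 without it (black line, x axis, 1 sample each), with the range of the 2 WT H1 samples as a grey band and of the 2 EED-/- H1 samples as an orange band. ACVR1, SMAD6 and SMAD7 stand higher from day 20 on than on day 16, BMPR2, SMAD4 and SMAD5 increase at each step, and BMPR1A peaks on day 16.

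The gene whose log2(TPM + 1) followed each of the 10 most closely over all 19 samples was found by Pearson's r among 14711 genes, as a description only, since the samples share their lines. It was USP7 for BMPR1A (r = 0.89), HOXD10 for BMPR1B (0.97), LRRN4 for ACVR1 (0.98), APAF1 for BMPR2 (0.99) and TMEM176B for ACVR2A (0.92). It was SKI, a SMAD corepressor, for SMAD1 (0.92), HELZ for SMAD5 (0.96), ZRANB1 for SMAD4 (0.94), GGT5 for SMAD6 (0.96) and DBNL for SMAD7 (0.91).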

How the data were processed

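Total RNA of 19 H1 samples was sequenced from TruSeq libraries. The authors mapped reads to GRCh38 mRNA sequences (Bowtie2) and used RSEM for quantification, and the deposited values are TPM, so read depth is unknown and precision rests on replicates alone. The study describes a count model with a false discovery rate of 1% and a fold change of 3. Since the unit was TPM, limma 3.58.1 in R 4.3.3 was fitted to log2(TPM + 1) instead, with 1 mean for each of 6 lines, 6 residual degrees of freedom, and eBayes with trend and robust options, over 19100 genes that reached a TPM of 1 in 2 or more of 12 samples. Fold changes on this scale understate changes of low genes. Errors of fold changes are standard errors, which hold only the spread within lines, also where groups of lines are compared. The days were fitted with a linear term over 17245 genes passing the same filter in the 7 samples of that line. The script was tested on simulated data. It recovered 89% of genes changed by 3 on the log2 scale in EED-/- H1 against WT H1 (19100 genes), 70% of those changed by 2, and made 0 false calls. For the slope (17245 genes) it recovered 99% of genes changed by 0.1 per day and 100% of those changed by 0.2. It made 12 false calls there. These rates hold for the spread set in the simulation, and a gene with a wider spread can be missed. In the data SMAD6 was not called at a slope of 0.12 ± 0.04 (limma adjusted p = 0.0715). BMPR2 (0.10 ± 0.02), ACVR1 (0.12 ± 0.02) and SMAD7 (0.14 ± 0.03) were called.

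The 10 genes and all lists were chosen with earlier results of these data known. The genes named with values are the 10 genes, the targeted genes, the largest rise and fall among called genes of 6 pathway lists (other receptors and co-receptors, other SMADs, SMAD modifiers and partners, ligands, known targets, antagonists), and the 1 closest gene to each of the 10 by Pearson's r, among genes reaching a TPM of 5 in 2 or more samples. Genes overlapping the 10, TTR among 5 lists of cell type markers, and ID1 and ID3 among the known targets were named besides. Overlaps are from GENCODE release 44 on GRCh38, and promoters from the RefSeq table. Replicate numbers follow the order of deposition and only name samples. Alternatives were another pseudocount, no filter, median-ratio scaling, a replicate block, a looser threshold, fits of 2 lines, each sample or day left out, and other references for the days.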

Additional observations from a re-analysis of the deposited data

Results flagged for a closer look

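Effects against WT H1 differed between PRC2-null lines for 3 of the 10 genes by limma's contrast of the lines, which share the same WT H1 samples. These are 2 of 10 between SUZ12-/- and EED-/- H1 cells, where 19.6% of all genes differed, and 1 of 10 between the double knockout and SUZ12-/- H1 cells, where 14.3% did, so the 10 genes differed about as often as all genes. BMPR2 was at 50.49 and 37.77 TPM in EED-/- H1 and 17.41 and 18.04 in SUZ12-/- H1 cells, a log2 difference of -1.25 ± 0.36 (SE, SUZ12-/- minus EED-/-, limma adjusted p = 0.0310). ACVR1 was at 50.24 and 45.94 against 26.18 and 23.98, a difference of -0.91 ± 0.27 (limma adjusted p = 0.0353). Both differences had the same direction with each of the 4 samples left out in turn, and neither then passed an adjusted p of 0.05. ACVR2A went the other way among these lines, being highest in SUZ12-/- H1 cells, and was at 7.11 and 9.71 TPM in EZH2-/-/EZH1-/- H1 cells against 25.80 and 23.30 in SUZ12-/- H1 cells, a difference of -1.45 ± 0.26 (double knockout minus SUZ12-/-, limma adjusted p = 0.00399). Groups of 2 samples were too small to look for single samples that stand apart.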

How the results depend on the processing

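BMPR2 was called in all 3 PRC2-null lines under every alternative run, as were SMAD6 and ACVR2A in SUZ12-/- H1 cells. BMPR1B also stayed called in EED-/- and EZH2-/-/EZH1-/- H1 cells. It passed the filter only through the PRC2-null samples, so its calls are a description and not a test. Over all values of single genes, 687 alternatives kept the direction and side of the threshold, 68 lost a call, 16 gained one and 21 changed sign, 0 of the latter called in either fit. The number called became 6 in SUZ12-/- H1 cells at an adjusted p of at most 0.05 with no fold cutoff, 2 in PRC2-null against retaining lines with median-ratio scaling, which moved 3 folds just under 3, and 2 in EZH2-/-/EZH1-/- H1 cells fitted with WT H1 alone, which leaves fewer samples for the spread. With a sample left out, it ranged from 3 to 4 in EED-/-, 3 to 4 in SUZ12-/-, 2 to 6 in EZH2-/-/EZH1-/-, 0 to 0 in EZH1-/- and 0 to 0 in EZH2-/- H1 cells, and from 3 to 5 in PRC2-null against retaining lines. Without its replicate 1 the double knockout had genes called lower. Each such fit leaves 1 sample in a line, and the share of all genes called in it is not given here.

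For pairs of PRC2-null lines, whose alternatives were chosen after seeing the data, the number was 1 for SUZ12-/- against EED-/- H1 with a pseudocount of 0.1. With a sample left out the number changed in every pair. The share of all genes in such fits, with 1 sample in a line, is not given here. For the slope the number was 4 with no filter, 2 without day 8, 0 without day 12, 1 without day 24 and 2 without day 28 (0 to 5 over all days left out), with fewer days in each fit. Past 2-fold, a pseudocount of 0.1 gave 4 genes on day 8 and 5 on day 12, and the WT H1 mean as reference gave 1 on day 12, 2 on day 16 and 5 on day 24. The cause of changes with the pseudocount, filter and reference was not tested.

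The values that changed sign were small or rested on 1 sample. With a sample left out, the log2 fold change in EZH2-/-/EZH1-/- H1 cells ranged from -2.01 to 0.12 for SMAD1, -1.73 to 0.21 for SMAD4 and -0.39 to 0.97 for SMAD5. In EZH1-/- H1 cells it ranged from -0.15 to 0.10 for ACVR1, -0.17 to 0.12 for ACVR2A, -0.037 to 0.37 for SMAD5 and -1.32 to 0.30 for SMAD7. In EZH2-/- H1 cells it ranged from -0.31 to 0.45 for BMPR1A, -0.70 to 0.30 for BMPR2, -0.19 to 0.23 for ACVR1, -0.46 to 0.037 for SMAD1, -0.50 to 0.15 for SMAD5 and -0.17 to 1.45 for SMAD7. In PRC2-null against retaining lines it ranged from -0.18 to 0.53 for SMAD1 and -0.018 to 0.63 for SMAD4. With median-ratio scaling ACVR1 in EZH1-/- H1 cells was at 0.0001. The slope of ACVR2A was 0.022 without day 8, 0.0032 without day 24 and 0.0077 with DOX as day 0, and that of BMPR1A was then 0.0075.

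With the replicate number as a replicate block the numbers called were 5 in EED-/-, 3 in SUZ12-/-, 4 in EZH2-/-/EZH1-/-, 0 in EZH1-/- and 0 in EZH2-/- H1 cells and 5 in PRC2-null against retaining lines, and 0 calls of single genes changed. Same-numbered samples did not deviate together (correlations from -0.12 to 0.22 over 15 pairs of lines), so the numbers were not used as a pairing. With 2 samples a line and 1 a day, small differences in these genes could not be resolved, and TPM gives no depth.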

Other observations

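Over all 19 samples, log2(TPM + 1) of 3 receptor genes moved together, with Pearson's r of 0.91 between BMPR1B and BMPR2, 0.90 between BMPR1B and ACVR1 and 0.92 between BMPR2 and ACVR1. The samples share lines and a time course, so this is a description only. The sample with DOX was lower than every WT H1, EZH1-/- and EZH2-/- H1 sample for BMPR1A (9.50 TPM), SMAD1 (8.48), SMAD4 (23.16) and SMAD5 (8.59), while ACVR1 (10.88), ACVR2A (5.76) and SMAD6 (3.77) lay within the range of those 6 samples. Of the pathway lists, the slope over the days rose for 7 and fell for 1 of 12 other receptors, and rose for 1 of 3 other SMADs. It rose for 10 and fell for 1 of 30 modifiers and partners. It rose for 5 of 9 ligands and 4 of 10 targets, and rose for 3 and fell for 1 of 8 antagonists. Of all 17245 genes, 12.3% rose and 1265 fell. Among the genes named for their rise between the lines, the slope over the days rose for BAMBI at 0.30 ± 0.05 per day on the log2 scale (limma adjusted p = 0.0115), GREM1 at 0.30 ± 0.05 (adjusted p = 0.00996) and TBX3 at 0.22 ± 0.04 (limma adjusted p = 0.0116).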
